A study of Mus musculus with 12 samples.

Results

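The fibrillar and type VI collagens described here are the transcripts of 10 genes, chosen by name from the deposited gene tables: Col1a1, Col1a2, Col3a1, Col5a1, Col5a2, Col5a3, Col6a1, Col6a2, Col6a3 and Col12a1. All 10 were found among the 22630 genes listed, each as a single row, and all 10 passed the filter on low counts. RNA was sequenced from 12 subcutaneous tumors grown in NSG mice, which lack mature lymphocytes, after injection of KCip53-1 cells. KCip53-1 is a line from a mouse pancreatic tumor that carries a p53R270H transgene under doxycycline (dox) control, and by the study's account it has lost its wild-type p53. The 4 no-dox tumors never saw dox, the 4 plus-dox tumors grew in mice that drank dox at 0.2 g/l for 36 days, and the 4 off-dox tumors, by the sample labels, had 33 days of dox and then 3 days without it, whereas the study's text has dox removed once tumors could be felt. The mice were of both sexes and 8 to 10 weeks of age by the labels, somewhat younger by the study's methods, and the same line and host strain were used in all groups. The study therefore asked what the mutant p53 does while it is on and what remains once it is switched off.

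Several features of this model bear on every value. The tumors were taken whole and unsorted, so host fibroblasts and vessels contribute RNA alongside the injected cells, and fewer cells of a type cannot be told apart from less RNA per cell. All tumors came from 1 line, and each mouse carried a pair of tumors without a record of which tumors shared a mouse, so the p-values take as independent some tumors that may not be. Libraries held 19845923 to 33137609 reads counted on genes. These were 88.4% to 89.4% of mapped reads for the no-dox group, against 82.2% to 87.1% for the plus-dox and 81.1% to 85.8% for the off-dox group, a share that separated the no-dox group from the other 8 tumors. Trp53, the gene of the transgene, ranged from 40.1 to 57.4 RPKM without dox, from 40.4 to 56.0 RPKM with it and from 41.6 to 45.4 RPKM after its withdrawal, so its total level did not separate the groups and the dox status rests on the sample labels. On the leading principal component of all expressed genes, which held 49.8% of the variance, plus-dox tumor 2 and off-dox tumor 4 stood apart with scores of 102 and 66.9, while the other 10 lay between -43.5 and 6.23.

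Collagens are the main structural proteins of the extracellular matrix. Each collagen molecule is a triple helix of chains in which glycine recurs at a fixed short spacing. Types I, III and V assemble into the banded fibrils of connective tissue, type VI forms beaded microfilaments near cells and vessels, and type XII attaches to the surface of fibrils. Pancreatic tumors are known for a dense collagen-rich stroma made largely by fibroblasts.

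The repeat that gives the triple helix its shape can be read directly from the genes. One coding exon of each member is shown, from the same genome build as the files (mm9), on the coding strand and with the glycine codon that opens each triplet of codons in capitals. For the fibril-forming chains these are exons of 54 bases, which hold 6 repeats of glycine and 2 further residues, and for the type VI chains exons of 63 bases with 7 repeats.
Col1a1 coding exon 8, chr11:94801218-94801271, plus strand: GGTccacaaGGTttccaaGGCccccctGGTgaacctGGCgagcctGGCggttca
Col1a2 coding exon 8, chr6:4465481-4465534, plus strand: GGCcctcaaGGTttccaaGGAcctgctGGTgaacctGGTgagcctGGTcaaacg
Col3a1 coding exon 6, chr1:45382205-45382258, plus strand: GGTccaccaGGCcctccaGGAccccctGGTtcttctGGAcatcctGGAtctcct
Col5a1 coding exon 15, chr2:27820771-27820824, plus strand: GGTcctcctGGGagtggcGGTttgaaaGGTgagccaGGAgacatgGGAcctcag
Col5a2 coding exon 6, chr1:45491737-45491790, minus strand: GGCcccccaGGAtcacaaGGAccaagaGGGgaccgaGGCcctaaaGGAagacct
Col5a3 coding exon 15, chr9:20605512-20605565, minus strand: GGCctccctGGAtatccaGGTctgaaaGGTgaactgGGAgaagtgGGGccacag
Col6a1 coding exon 15, chr10:76180540-76180602, minus strand: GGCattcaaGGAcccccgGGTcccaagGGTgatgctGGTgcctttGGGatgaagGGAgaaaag
Col6a2 coding exon 11, chr10:76072905-76072967, minus strand: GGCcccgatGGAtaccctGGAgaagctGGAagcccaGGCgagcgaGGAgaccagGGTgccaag
Col6a3 coding exon 17, chr1:92689591-92689653, minus strand: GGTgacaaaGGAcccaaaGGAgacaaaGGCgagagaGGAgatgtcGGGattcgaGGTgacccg
Col12a1 coding exon 54, chr9:79462156-79462209, minus strand: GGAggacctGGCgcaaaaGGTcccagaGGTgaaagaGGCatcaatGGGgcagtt

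Compared base by base, exon 8 of Col1a1 and Col1a2 matched at 42 of 54 bases, exon 15 of Col5a1 and Col5a3 at 37 of 54 and exon 6 of Col3a1 and Col5a2 at 29 of 54. The exon of 54 bases recurred 21 times in Col1a1, 24 times each in Col1a2, Col3a1 and Col5a2, 29 times in Col5a1 and 31 times in Col5a3, whereas 0.654% of the 197819 coding exons of 22756 genes have that length. Col6a1 and Col6a3 had 7 coding exons of 63 bases each and Col6a2 had 8, a length shared by 0.589% of all coding exons. Col12a1 differed from both groups, with 4 exons of 54 bases among its 65 coding exons. The longest unbroken run of glycine triplets followed the same division. It was 337 to 344 repeats in the 6 fibril-forming chains, 87 in Col6a1 and Col6a2, 45 in Col6a3 and 32 in Col12a1. The Col1a1 and Col1a2 exons, identical at 77.8% of bases, were the closest of the 3 pairs compared, and how reads that map to several places were handled is not stated.

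**Figure D1:**
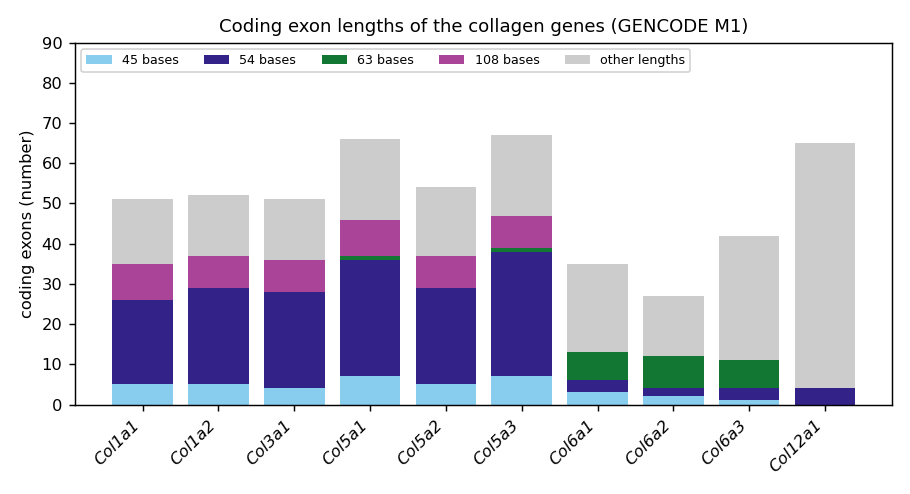
Number of coding exons of each length (colours, in bases) in the 10 collagen genes, from the GENCODE M1 annotation. The 6 fibril-forming chains share 21 to 31 exons of 54 bases each, the type VI chains have 7 or 8 of 63 bases, and Col12a1 is made mostly of exons of other lengths.

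Upstream of the start given in the files, the motif TATAAA was found within 150 bases of Col1a1, Col1a2 and Col3a1 and of none of the other 7 members, against 7.69% of all 22628 such windows. All motifs were searched on both strands. CCAAT was found in 2 members (Col1a1 and Col1a2, 26.2% of all windows), GGGCGG in 3 (Col5a1, Col5a3 and Col6a2, 38.2%) and TGANTCA in 1 (Col6a1, 3.78%). The 30 bases around each TATAAA match are shown because these are also the 3 most abundant members, with the motif in capitals and its first base at -46, -28 and -117 from the start.
Col1a1, chr11:94797526-94797555, plus strand: ccatcaagatggTATAAAaggggcccaggc
Col1a2, chr6:4455657-4455686, plus strand: aaacttttcccaTATAAAtaaggcaggtct
Col3a1, chr1:45368254-45368283, plus strand: actaatgcatgtTATAAAcatatgcatagg
Counted from the start in the files, the GENCODE M1 gene start lies at -46 for Col1a1, -883 for Col1a2 and 0 for Col3a1. By that annotation the Col1a1 and Col1a2 matches lie at or past the start rather than upstream of it. The match is a description of these letters and no binding was measured.

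Type I and type III collagen transcripts were among the most abundant of these tumors. Together the 10 members took 0.756% to 2.06% of counted reads per tumor, with a mean of 1.01% ± 0.217 (SD, n = 4) in no-dox tumors, against 1.58% ± 0.399 in the plus-dox group and 1.02% ± 0.108 in the off-dox group. Levels between genes are compared in RPKM, that is, reads scaled to transcript length and to the mapped reads of the library. Over all 12 tumors the mean was 503 RPKM for Col3a1, 479 RPKM for Col1a2 and 455 RPKM for Col1a1, ranks 124, 127 and 134 of all genes. Col6a1 followed at 134 RPKM, Col6a2 at 101 RPKM, Col5a2 at 69.9 RPKM, Col12a1 at 62.4 RPKM, Col5a1 at 51.1 RPKM, Col6a3 at 23.5 RPKM and Col5a3 at 15.9 RPKM, with ranks from 473 for Col6a1 to 4542 for Col5a3. Some neighbours in this order could not be ranked beyond their spread. Col3a1 exceeded Col1a2 in 7 of 12 tumors, Col1a2 exceeded Col1a1 in 9, Col5a2 exceeded Col12a1 in 8, Col12a1 exceeded Col5a1 in 10 and Col6a2 exceeded Col5a2 in 11. The remaining steps, from Col1a1 to Col6a1, Col6a1 to Col6a2, Col5a1 to Col6a3 and Col6a3 to Col5a3, held in all 12. Type I made up 45.6% to 54.1% of the summed RPKM of the members, type III 18.7% to 33.2%, type VI 10.4% to 16.6%, type V 6.39% to 8.52% and type XII 2.01% to 4.55%. The rounded counts behind these values ran from 1262 to 199725 per gene and tumor, so the differences below are set against the spread between tumors rather than counting error.

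Type I collagen, the bulk of fibrils in most tissues, is built from products of Col1a1 (chr11:94797584-94813170) and Col1a2 (chr6:4455697-4491543). Col1a1 stood at 346, 381, 453 and 306 RPKM in no-dox tumors 1 to 4, at 444, 790, 695 and 552 RPKM in plus-dox tumors 1 to 4 and at 356, 353, 334 and 449 RPKM in off-dox tumors 1 to 4. Of the plus-dox tumors 3 lay above every no-dox tumor, and the lowest of them fell just inside the no-dox range, while the off-dox values lay within that range. Col1a2 stood at 419, 454, 512 and 349 RPKM in the no-dox group, at 469, 762, 646 and 568 RPKM in the plus-dox group and at 391, 387, 377 and 410 RPKM in off-dox tumors. The off-dox values of Col1a2 were close together (coefficient of variation 3.54%) and all 4 lay below every plus-dox value, though inside the no-dox range.

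Type III collagen, which mixes with type I in elastic and healing tissue, has a single chain, Col3a1 (chr1:45368383-45406551). It stood at 440, 449, 671 and 242 RPKM in no-dox tumors, at 412, 1096, 589 and 600 RPKM in plus-dox tumors and at 267, 419, 382 and 466 RPKM in off-dox tumors. Its spread was wide in every group, and in plus-dox tumors it came largely from tumor 2, the only plus-dox tumor above the no-dox maximum. From lowest to highest tumor Col3a1 varied 4.53-fold, against 2.58-fold for Col1a1 and 2.18-fold for Col1a2.

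Type V chains are minor fibril components that control fibril diameter. Col5a1 (chr2:27741945-27895030) stood at 39.5, 39.6, 52.3 and 33.1 RPKM in the no-dox group, at 47.5, 81.3, 71.1 and 60.2 RPKM in the plus-dox group and at 41.1, 47.4, 44.8 and 55.6 RPKM in off-dox tumors. Col5a2 (chr1:45431176-45560127), a neighbour of Col3a1 on the same chromosome, stood at 53.6, 59.5, 72.5 and 52.3 RPKM in the no-dox group, at 64.1, 118, 97.7 and 74.97 RPKM in the plus-dox group and at 65.7, 66.6, 45.8 and 68.6 RPKM in off-dox tumors. In both genes 3 of 4 plus-dox tumors exceeded the no-dox maximum and plus-dox tumor 1 did not. Col5a3 (chr9:20574494-20619478), the least abundant member, stood at 10.6, 10.9, 18.9 and 5.59 RPKM in the no-dox group, at 10.7, 36.8, 19.8 and 15.0 RPKM in the plus-dox group and at 9.97, 14.8, 9.53 and 28.1 RPKM in off-dox tumors. It varied 6.58-fold between tumors, the most of all members, with its peaks in plus-dox tumor 2 and off-dox tumor 4, the tumors that the leading principal component set apart.

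Type VI microfilaments are built from the products of Col6a1 (chr10:76171537-76188789) and Col6a2 (chr10:76058501-76086149), which lie near each other, and of Col6a3 (chr1:92663435-92740548). Col6a1 stood at 135, 118, 140 and 111 RPKM in the no-dox group, at 132, 178, 133 and 181 RPKM in the plus-dox group and at 122, 106, 111 and 138 RPKM in off-dox tumors. Col6a2 stood at 110, 98.5, 116 and 83.6 RPKM in the no-dox group, at 101, 136, 95.2 and 136 RPKM in the plus-dox group and at 89.1, 72.5, 76.4 and 97.2 RPKM in off-dox tumors. For both genes plus-dox tumors 2 and 4 were above all no-dox tumors, and plus-dox tumors 1 and 3 were within their range. Col6a3 stood at 18.8, 17.2, 27.7 and 12.9 RPKM in the no-dox group, at 18.8, 38.4, 28.5 and 31.4 RPKM in the plus-dox group and at 17.6, 23.5, 17.9 and 30.1 RPKM in off-dox tumors. Col6a1 was the steadiest member, with a 1.71-fold range over the 12 tumors, while Col6a3 varied 2.98-fold.

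Col12a1 (chr9:79446798-79566485), the fibril-associated chain, stood at 50.4, 55.1, 56.0 and 53.6 RPKM in the no-dox group, at 64.2, 66.3, 101 and 84.0 RPKM in the plus-dox group and at 64.8, 62.6, 45.1 and 44.8 RPKM in off-dox tumors. It was the only member for which all 4 plus-dox tumors lay above all 4 no-dox tumors. Its no-dox values were also the most even of any member in that group, with a coefficient of variation of 4.58%. Its off-dox tumors fell on both sides of the narrow no-dox range, tumors 1 and 2 above it and tumors 3 and 4 below it.

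**Figure D2:**
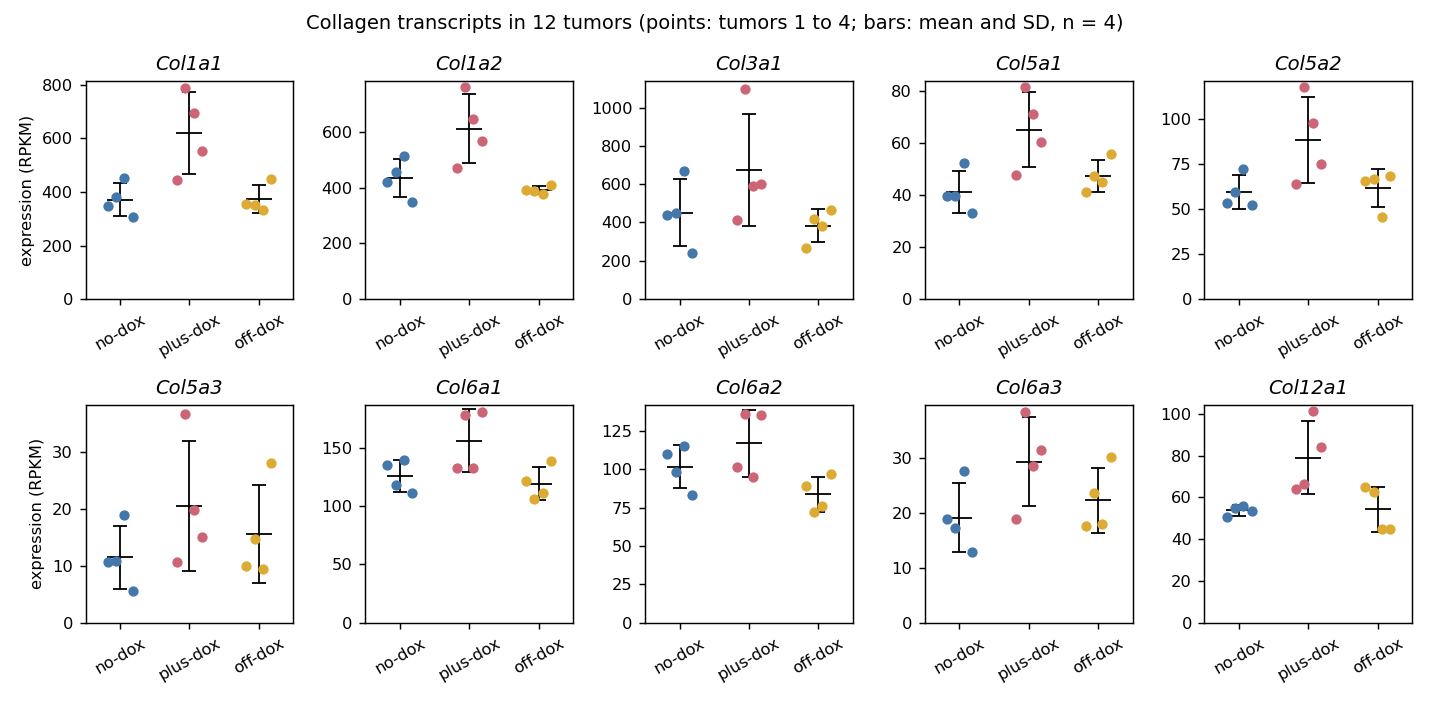
Expression of the 10 collagen genes in RPKM (vertical axis, from 0) in 4 tumors of each group. Points are tumors 1 to 4 from left to right within a group and bars give the mean and SD. The plus-dox mean is the highest of the 3 in all 10 panels, and only in Col12a1 do the plus-dox and no-dox points not overlap.

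Comparing plus-dox with no-dox tumors asks how collagen transcripts differ with dox given, when mutant p53 is meant to be on. No tumors had dox without the transgene, so effects of the drug and of mutant p53 cannot be told apart. All 10 members were higher in plus-dox tumors, where 51.4% of all genes tested were. For all 10 the plus-dox mean lay above the no-dox maximum, narrowly for Col3a1 (674 against 671 RPKM). Of the 40 plus-dox values, 26 exceeded the highest no-dox tumor of the same gene. The share of all genes for these counts was not computed, and the values come from 4 tumors in which most members vary together. No member passed the test, nor did any gene of the table, so percent called was 0 in either direction. The test was edgeR's quasi-likelihood test with Benjamini-Hochberg adjustment over 17561 genes. A call needed an adjusted p under 0.1 with more than 1.5-fold change. The study applied these limits to DESeq2 instead, and calls by that tool are given below. At an unadjusted p under 0.05, 6 of 10 members were higher (Col1a1, Col1a2, Col5a1, Col5a2, Col6a3 and Col12a1), against 8% of all genes tested. The median log2 fold change of the members was 0.59, from 0.21 to 0.86, while that of all genes with a mean RPKM over 0.25 was -0.01. For 1 of the 10 members, Col12a1, the groups did not overlap, against 4.3% of all genes that did not overlap in this direction.

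The mean of Col1a1 was 372 ± 62.4 RPKM (SD, n = 4) in no-dox and 620 ± 153 RPKM in plus-dox tumors, a log2 fold change of 0.76 (SE 0.21, edgeR adjusted p = 0.32). Col5a1 differed by 0.68 (SE 0.20, edgeR adjusted p = 0.32), Col12a1 by 0.57 (SE 0.18, edgeR adjusted p = 0.33) and Col1a2 by 0.51 (SE 0.18, edgeR adjusted p = 0.33). These 4 had the smallest unadjusted p-values, from 0.0038 for Col1a1 to 0.014 for Col1a2. The largest estimates were not the best determined. Col5a3 differed by 0.86 with an SE of 0.48, and Col3a1 by 0.60 with an SE of 0.35. Without plus-dox tumor 2 the estimate was 0.42 for Col5a3 and 0.25 for Col3a1. Col6a3 differed by 0.62 (SE 0.28) and Col5a2 by 0.59 (SE 0.22). Col6a1 and Col6a2, the other type VI chains, had the smallest estimates, 0.32 (SE 0.15) and 0.21 (SE 0.16).

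The test used decided whether members were called. DESeq2, the study's own tool, here in a later version, called Col1a1 and Col5a1 (adjusted p = 0.0667 and 0.0963), with 0.768% of genes called higher. It called 128 genes in this comparison, 116 of them higher. DESeq2 with moderated fold changes called Col1a1 (adjusted p = 0.0728), with 0.532% of genes called higher. limma-voom with tumor weights called Col1a1, Col5a1 and Col12a1 (adjusted p = 0.0951, 0.097 and 0.0942), with 0.547% of genes called higher. With plus-dox tumor 2 and off-dox tumor 4 left out, all 10 members were still higher in plus-dox tumors, with a median log2 difference of 0.41, and 4 had an unadjusted p under 0.05. Leaving out single tumors gave between 4 and 9 such members. With the share of reads on genes as a covariate the median was 0.53 and none had an unadjusted p under 0.05.

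Comparing off-dox with no-dox tumors asks what differed after dox was withdrawn, 3 days by the labels. The mean levels of the collagens lay within the range of the no-dox group. The off-dox mean of all 10 members fell between the lowest and highest no-dox tumor, and 5 of 40 off-dox values exceeded the no-dox maximum of their gene. The share of all genes was not computed for these counts either. No member was called by edgeR, against 1.03% of genes called higher and 0.307% called lower, and none had an unadjusted p under 0.05, against 10.9% of genes higher and 9.48% lower. The number of genes called was itself unstable. It was 235 here, 0 with a replicate block or with the share of reads on genes as a covariate, 3 with the 8 tumors alone, 786 without off-dox tumor 1, 352 without plus-dox tumor 2, 19 without plus-dox tumor 3 and 1 without no-dox tumor 3. Leaving out any other no-dox tumor gave 0 calls, as did leaving out plus-dox tumor 4 or any off-dox tumor except tumor 1. The estimates scattered around 0, with 6 of 10 higher (50.7% of all genes) and a median log2 fold change of 0.04. They ran from 0.48 for Col5a3 (SE 0.47) and 0.25 for Col6a3 (SE 0.28) to -0.20 for Col3a1 (SE 0.34) and -0.25 for Col6a2 (SE 0.16), the latter with an edgeR adjusted p of 0.38. Col1a1 was 372 ± 62.4 RPKM in no-dox and 373 ± 51.5 RPKM in off-dox tumors, a log2 difference of 0.04 (SE 0.21). A difference that misses the test does not show equal levels, and the SE of 0.15 to 0.47 is the resolution of these 4 against 4 tumors.

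Comparing off-dox with plus-dox tumors asks how tumors differed with the inducer withdrawn or present. This comparison shares the plus-dox tumors with the first, so high values there enter both. All 10 members were lower in off-dox tumors, where 50.1% of all genes were, with a median log2 fold change of -0.48, while the median of expressed genes was near 0. At an unadjusted p under 0.05, 8 members were lower, all but Col5a3 and Col6a3, against 1.81% of all genes. None was called, the adjusted p was 1 for each member by edgeR, and percent called over all genes was 0. For Col1a2 alone the groups did not overlap, against 0.934% of genes lower without overlap. Col3a1 had the largest estimate, -0.80 (SE 0.35), followed by Col1a1 at -0.72 (SE 0.21) and Col1a2 at -0.63 (SE 0.18). Col12a1 was at -0.53 (SE 0.18), Col5a2 at -0.51 (SE 0.22), Col6a2 at -0.46 (SE 0.16) and Col5a1 at -0.45 (SE 0.20). Without plus-dox tumor 2 and off-dox tumor 4 all 10 were still lower, 5 with an unadjusted p under 0.05, and the median was -0.44. Without plus-dox tumor 2 alone Col5a3 was 0.07 higher in off-dox tumors and 4 members had an unadjusted p under 0.05. The count was also 4 without plus-dox tumor 3, off-dox tumor 1 or off-dox tumor 3. A joint test of the 3 groups called no member and no other gene (0% of all genes), and Col1a1 had the smallest unadjusted p, 0.0048, with an edgeR adjusted p of 0.21.

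**Figure D3:**
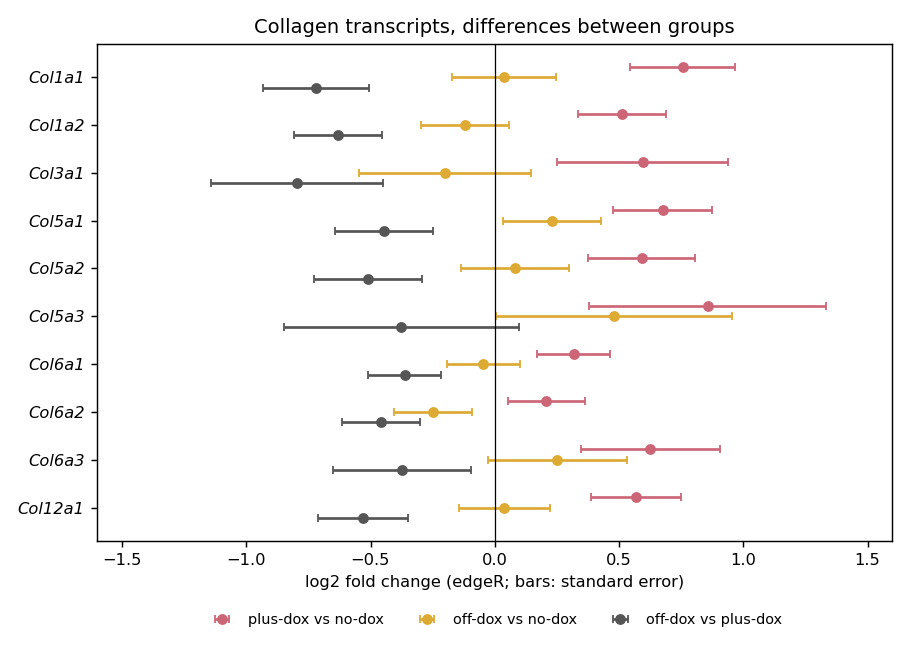
Log2 fold change of each collagen gene between groups (horizontal axis, points) from edgeR, with a standard error (bars) derived from its test statistic. Plus-dox against no-dox is above 0 for all 10 genes (median 0.59), off-dox against plus-dox is below 0 for all 10 (median -0.48), and off-dox against no-dox scatters around 0. The comparisons share groups and no gene passed the test in any of them.

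Within each group most members shared the tumor with the highest value. No-dox tumor 3 had the highest value of its group for all 10 members, plus-dox tumor 2 for 8 and off-dox tumor 4 for 9. No-dox tumor 4 and plus-dox tumor 1 had the lowest value for 9 members each, while in the off-dox group the lowest value fell to tumor 1 for 3 members, tumor 2 for 2, tumor 3 for 4 and tumor 4 for 1. Col12a1 was the exception in off-dox tumor 4, where it was at its lowest while the other 9 were at their highest.

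Across the 12 tumors the 45 pairs of members had a median Pearson r of 0.80 on log2 CPM, from 0.29 to 0.97. CPM are counts scaled to the library total after normalization by TMM factors. In permutation tests with 100000 resamples 38 pairs passed at a Benjamini-Hochberg adjusted p under 0.05. Col1a1 and Col1a2, the partner chains of type I, had the highest value (r = 0.97, permutation p = 1e-05, the smallest these permutations can give, rho = 0.92, permutation p = 0.00011), and r was 0.90 without plus-dox tumors 2 and 3, the tumors farthest from the median of Col1a1. Col6a1 and Col6a2, partner chains of type VI, had r = 0.94 (permutation p = 1e-05, rho = 0.94, permutation p = 2e-05), and 0.87 without the 2 farthest tumors. Col5a3 and Col6a3, chains of different types, had r = 0.95 (permutation p = 1e-05, rho = 0.88, permutation p = 0.00033), and 0.94 without the 2 farthest. For these 3 pairs the adjusted p of r was 0.00011. Removing the group means left the values nearly as high, at 0.96 for Col1a1 with Col1a2, 0.97 for Col6a1 with Col6a2 and 0.95 for Col5a3 with Col6a3.

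Col12a1 followed the other members less closely than they followed one another. Its 9 pairs had a median r of 0.44 and 4 passed, against a median of 0.82 and 34 of 36 for the pairs without it. With group means removed the medians were 0.11 and 0.84. Its lowest value was with Col5a3 (r = 0.29, permutation p = 0.36, rho = 0.38, permutation p = 0.22), and its highest with Col5a2 (r = 0.69, permutation p = 0.013, rho = 0.72, permutation p = 0.011), which dropped to 0.60 without the 2 farthest tumors. Col12a1 also had the lowest correlation with the leading principal component (r = -0.00782), where the other 9 members had 0.46 to 0.88. For scale, 1.09% of the other 14547 expressed genes exceeded an r of 0.80 with Col1a1, 3.88% with Col5a3 and 0.0825% with Col12a1. Leaving out plus-dox tumor 2 and off-dox tumor 4 gave 29 pairs past the limit and a median of 0.78.

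**Figure D4:**
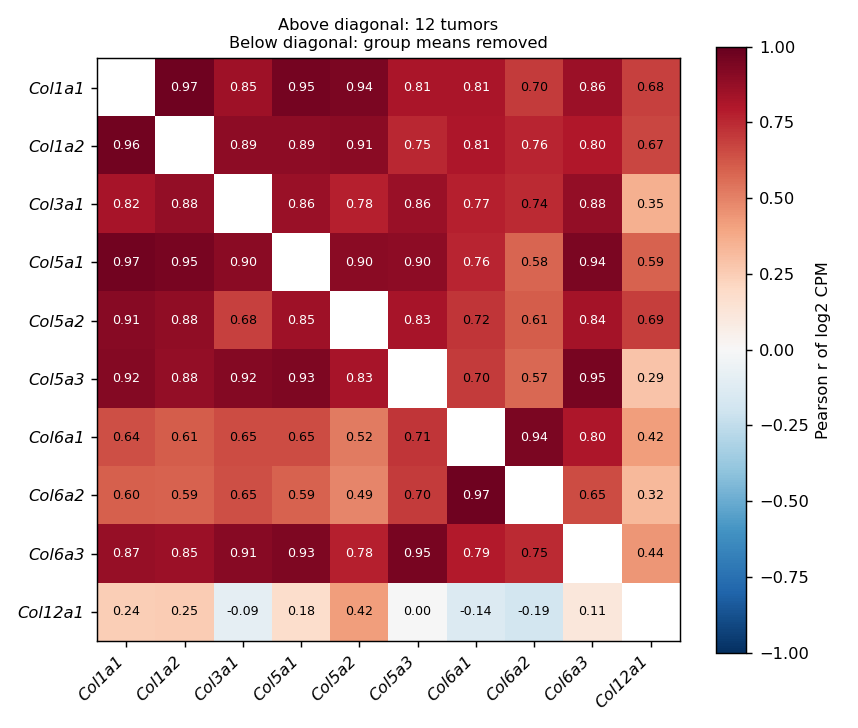
Pearson r of log2 CPM for each pair of collagen genes, over 12 tumors (above the diagonal) and with group means removed (below it). Values are high among 9 of the genes, up to 0.97 for Col1a1 with Col1a2. They are lower in the Col12a1 row and column, where the median falls from 0.44 to 0.11 once group means are removed.

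The genes whose pattern was most like the mean of the 10 members, by Pearson r of log2 CPM over 12 tumors among 14538 other genes, were Avpr1a, a vasopressin receptor (r = 0.94), Fscn1, an actin-bundling protein (0.94), Lama4, a laminin chain of vessel basement membranes (0.94), Fkbp10, a collagen-folding prolyl isomerase (0.94), and Pecam1, an endothelial adhesion molecule (0.93). Fscn1 was the only one of these 5 without overlap between plus-dox and no-dox tumors, with 14.8 to 27.4 RPKM against 10.1 to 13.9 RPKM (log2 fold change 0.75, edgeR adjusted p = 0.32). Over all genes tested, 4.3% were higher without overlap. The 5 genes were picked for matching the members in these same tumors, so a group difference follows in part from that choice and is no separate evidence.

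Ratios of chains within a tumor do not depend on library size and show whether partners kept their proportion. The Col1a1/Col1a2 ratio of RPKM, where 1 means equal levels, was 0.826, 0.839, 0.885 and 0.878 in no-dox tumors, 0.947, 1.04, 1.08 and 0.972 in plus-dox tumors and 0.912, 0.912, 0.885 and 1.09 in off-dox tumors. All plus-dox tumors lay above all no-dox tumors, a difference in mean log2 ratio of 0.23 (exact permutation test, two-sided, p = 0.029, adjusted p = 0.23 over 24 tests). All off-dox tumors lay above them as well, tumor 3 by less than the printed digits show, with a difference of 0.15 (exact permutation p = 0.029, adjusted p = 0.23) that was 0.08 without off-dox tumor 4. Off-dox and plus-dox tumors overlapped in this ratio (exact permutation p = 0.29). The level of Col1a1 was within the no-dox range in off-dox tumors. Its ratio to Col1a2 was above that range, by a very small margin in tumor 3, and did not pass after adjustment. How often the ratios of other genes separate in this way was not computed.

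The Col6a1/Col6a2 ratio was 1.23, 1.20, 1.21 and 1.33 in the no-dox group, 1.31, 1.31, 1.398 and 1.33 in the plus-dox group and 1.37, 1.46, 1.46 and 1.42 in off-dox tumors. Off-dox tumors lay above every no-dox tumor, with a difference in mean log2 ratio of 0.20 (exact permutation p = 0.029, adjusted p = 0.23), while plus-dox tumors overlapped both no-dox tumors (difference 0.11, exact permutation p = 0.086) and off-dox tumors (exact permutation p = 0.057). The smallest p that 4 against 4 tumors allow is 0.029. It was reached in 3 of the 24 tests over 8 ratios, and none passed after adjustment. The other 6 ratios, which set Col3a1, Col5a1, Col5a2, Col5a3, Col6a3 and Col12a1 against partner or fibril chains, overlapped in every comparison. The share of reads on genes also separated the no-dox tumors from the other 8, and its part in the ratios was not tested.

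**Figure D5:**
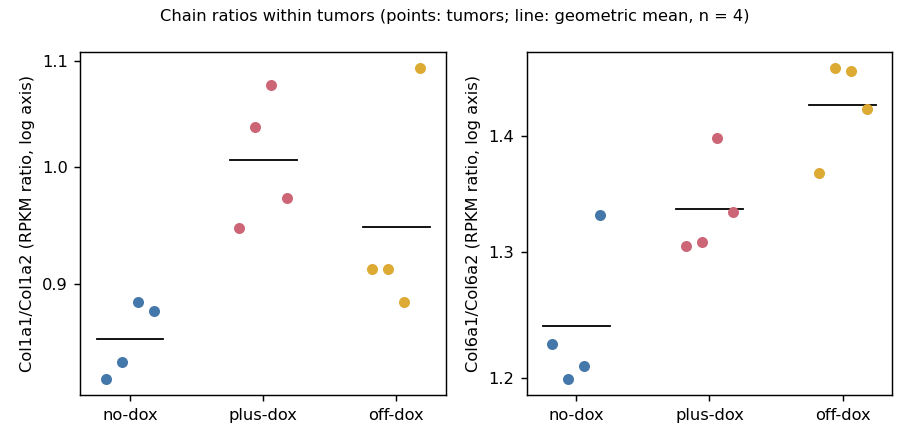
Ratio of Col1a1 to Col1a2 (left) and of Col6a1 to Col6a2 (right) in RPKM within each tumor, on a log axis, with the geometric mean of each group as a line (n = 4). The 4 no-dox tumors lie at 0.826 to 0.885 for the type I ratio, below all other tumors, and the 4 off-dox tumors at 1.37 to 1.46 for the type VI ratio, above all no-dox tumors.

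The proteins that fold, trim, cross-link, bind and cleave collagen were followed in the same tests. Of 16 genes for procollagen modification and folding, none was called in any comparison. Their median log2 fold change was 0.28 in plus-dox against no-dox tumors, with 13 of 16 higher, and -0.06 in off-dox against no-dox tumors. P4hb is a subunit of the enzyme that hydroxylates collagen prolines and also a general protein disulfide isomerase. Its mean was 660 ± 53.4 RPKM (SD, n = 4) in the no-dox group. In the plus-dox and off-dox groups it was 504 ± 38.0 and 460 ± 101 RPKM. The log2 differences from no-dox were -0.38 (edgeR adjusted p = 0.35) and -0.49 (edgeR adjusted p = 0.14), with no overlap in either. The share of all genes lower without overlap is not given for these comparisons. Serpinh1, the collagen-specific chaperone, differed by 0.06 (SE 0.27) in plus-dox tumors, and Ppib, a prolyl isomerase, by -0.15 (SE 0.17).

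Of 12 genes for propeptide processing and cross-linking, 10 were higher in plus-dox than in no-dox tumors (51.4% of all genes; median 0.37), 4 had an unadjusted p under 0.05 in that direction (Bmp1, Lox, Loxl1 and Loxl3, against 8% of all genes), and none was called. Bmp1, the procollagen C-proteinase, was 53.6 ± 8.36 RPKM in the no-dox group, 75.9 ± 20.6 RPKM in the plus-dox group and 77.4 ± 17.6 RPKM in off-dox tumors, so its off-dox mean did not lie lower. Pcolce, which enhances that proteinase, was 137 ± 16.3 RPKM in the no-dox group, 138 ± 13.1 RPKM in the plus-dox group and 98.2 ± 5.84 RPKM in off-dox tumors. Its off-dox values lay below all values of both other groups. Against plus-dox tumors 0.934% of all genes were lower without overlap, and the share against no-dox tumors is not given. The difference of Pcolce from no-dox was -0.45 (SE 0.10, edgeR adjusted p = 0.083). This is past the p limit and under 1.5-fold, so Pcolce was not called. Loxl2, a lysyl oxidase, differed by 0.25 (SE 0.14) in plus-dox against no-dox tumors.

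Of 13 collagen receptors, 12 were tested (Gp6 had too few counts). None was called, 9 of 12 were higher in plus-dox than in no-dox tumors (51.4% of all genes; median 0.39), and Itga11, Ddr2 and Mrc2 had an unadjusted p under 0.05 (8% of all genes). The most abundant, Itgb1, the shared integrin beta chain, differed by 0.06 (SE 0.36), Ddr1, the epithelial discoidin receptor, by -0.34 (SE 0.24), and Antxr2 by 0.54 (SE 0.42). Of 11 genes for collagen cleavage and turnover none was called, and 10 had higher means in plus-dox tumors (median 0.66). Timp1, an inhibitor of collagenases, differed by 0.69 (SE 0.51), Timp2 by 0.06 (SE 0.14) and Mmp14, a membrane collagenase, by 0.16 (SE 0.19).

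Of 13 further fibril-forming, fibril-associated and type VI chains 12 were tested, since Col9a1 had too few counts. Their median log2 fold change in plus-dox against no-dox tumors was 0.29, with 7 of 12 higher. Col11a2, a fibril-forming chain of cartilage, was 1 of 12 genes of this list called higher in off-dox than in no-dox tumors, against 1.03% of all genes, and no gene of the other lists was called. It was 0.203 ± 0.0717 RPKM in the no-dox group, 0.462 ± 0.0789 RPKM in the plus-dox group and 0.423 ± 0.0483 RPKM in off-dox tumors, and its no-dox mean was under the limit of 0.25 RPKM, so that it met that limit through the off-dox group, where it was higher. Its log2 fold change was 1.09 (SE 0.28, edgeR adjusted p = 0.090). The adjusted p stayed under 0.1 in 8 of 22 alternatives (0.0058 to 1.00 over all 22) and in 2 of the 12 that left out single tumors, those without off-dox tumor 1 or plus-dox tumor 2, and it was 0.14 with a replicate block. The most abundant of this list, Col16a1, Col27a1 and Col14a1, were between 14.4 and 16.4 RPKM over all tumors and differed by 0.28 (SE 0.15), 0.47 (SE 0.32) and -0.12 (SE 0.21) in plus-dox against no-dox tumors.

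Markers of the cell types in a whole tumor were set beside the collagens. The injected cells are labelled pancreatic, and of the 9 pancreatic lineage markers Ptf1a, Tff1 and Ins2 were at 0 in every tumor and Cpa1 was under 0.25 RPKM, while Krt19 and Muc1 were the most abundant. The 12 epithelial markers summed to 2385 to 3317 RPKM in the no-dox group, 1369 to 2147 RPKM in the plus-dox group and 1128 to 2823 RPKM in off-dox tumors, so no plus-dox tumor reached the no-dox range, and 11 of 12 had lower means in plus-dox tumors (median -0.68). Krt8, a keratin of simple epithelia, was 926 ± 66.1 RPKM in the no-dox group, 550 ± 39.7 RPKM in the plus-dox group and 544 ± 202 RPKM in off-dox tumors. The 13 fibroblast markers other than collagens summed to 1524 to 2420, 1837 to 2565 and 1827 to 2848 RPKM in the 3 groups. These sums overlapped. S100a4 and Fn1 weighed most in them, with means of 721 and 510 RPKM over all tumors. Of the 13, 10 had higher means in plus-dox than in no-dox tumors (median 0.29). Pdgfra and Postn had an unadjusted p under 0.05 in that direction (8% of all genes). In off-dox against plus-dox tumors 3 of 13 were higher (median -0.25). Mfap5, Fbln1 and Postn were lower there with an unadjusted p under 0.05 (1.81% of all genes). In off-dox against no-dox tumors 5 of 13 were higher (median -0.10). All 11 endothelial markers were higher in plus-dox tumors (51.4% of all genes; median 0.52), 5 with an unadjusted p under 0.05 (8% of all genes), and their sum was 52.3 to 78.3 RPKM in the no-dox group, 67.3 to 181 RPKM in the plus-dox group and 60.6 to 90.7 RPKM in off-dox tumors, with the maximum in plus-dox tumor 2. All 10 pericyte and smooth muscle markers were higher in plus-dox than in no-dox tumors (51.4% of all genes, median 0.54). Of these, 4 (Rgs5, Myh11, Notch3 and Abcc9) had an unadjusted p under 0.05 (8% of all genes). For 3 of the 10 the groups did not overlap (4.3% of all genes). Their sums overlapped, at 313 to 554, 354 to 561 and 346 to 462 RPKM. Tagln and Acta2, with means of 228 and 130 RPKM over all tumors, weighed most in the sums. In off-dox against no-dox tumors 7 of 10 were higher (50.7% of all genes, median 0.46). Myh11, Notch3 and Abcc9 had an unadjusted p under 0.05 there (10.9%). No gene on these marker lists was called, and the part of cell composition in the collagen differences was not tested.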

How the data were processed

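RNA of 12 tumors, 4 in each of 3 groups, was analysed from gene tables with 2 measures for 22630 genes. The authors mapped 50-bp single-end reads of non-strand-specific poly(A) libraries to mm9 with TopHat (version 1.4.1) and condensed RefSeq isoforms to unstranded gene models. The deposited expected counts are base-wise coverage of unambiguous exonic spans expressed as reads, and the authors' RPKM divides them by exonic length and mapped reads. The submitters' processing notes also name CASAVA (1.8.2), Bowtie (0.12.8) and bedtools (2.16.2). Without strand, reads of a gene and of an antisense partner cannot be told apart.

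Expected counts were rounded and tested in edgeR (version 4.0.16) with TMM factors, a quasi-likelihood fit of the 3 groups and Benjamini-Hochberg adjustment over the 17561 genes with at least 10 counts in all. That test reports no standard error. The SE given with a log2 fold change is its absolute value divided by the square root of the F statistic. A call needed an adjusted p under 0.1, over 1.5-fold change and a length of more than 250 bp. It also needed an average RPKM above 0.25 across the tumors of the comparison. The study used these limits with DESeq2. DESeq2 (1.42.0) with and without moderated fold changes, limma-voom (limma 3.58.1), RLE factors, other count filters, the 8 tumors of a pair alone, a replicate block, the share of reads on genes as a covariate, an adjusted p under 0.05 and leaving out each tumor were alternatives. Leaving out plus-dox tumor 2 and off-dox tumor 4 together was chosen after seeing the data. Chain ratios used exact permutation tests over 70 arrangements. Correlations used log2 CPM with a prior count of 2. The main edgeR fit, DESeq2 with and without moderated fold changes and limma-voom were first tested on simulated data with 200 changed genes. The planted changes were larger than any seen for the members, so differences of the members' size were not tested. The other alternatives were not simulated. Replicate libraries of a group differed well beyond sampling noise, so none was counted as a copy.

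The members and all gene lists were chosen with earlier results of these data known. The genes named are the members, Trp53, the 3 most abundant genes and each called gene of every pathway list, the 2 most abundant of every marker list and the 5 closest pattern neighbours. Of the genes named beyond this rule, those with an unadjusted p under 0.05, those not tested and the lineage markers at 0 were chosen after their values were seen. The genome sequence and GENCODE M1 annotation are of the NCBIM37 assembly, the build of the files. The work used R 4.3.3 and Python 3.11.15 with numpy, scipy, pandas and matplotlib.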

Additional observations from a re-analysis of the deposited data

Results flagged for a closer look

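Among 54 groups of 4 values examined (members and chain ratios in each group), 3 held a tumor whose gap to the next, divided by the range of the group, was over Dixon's 95% critical value. Chance gives about 1 in 20 such groups, so about this number arises by chance. Col5a2 in off-dox tumor 3 was at 45.8 RPKM, below the 65.7 to 68.6 RPKM of the other off-dox tumors, with a gap of 0.872 of the range. The Col1a1/Col1a2 ratio in off-dox tumor 4 was 1.09, above the 0.885 to 0.912 of the other off-dox tumors, with a gap of 0.857 of the range. The Col12a1/Col1a1 ratio in plus-dox tumor 2 was 0.0839, below the 0.145 to 0.152 of the other plus-dox tumors, with a gap of 0.915 of the range. Plus-dox tumor 2 and off-dox tumor 4 are the tumors with the highest scores on the leading principal component. Off-dox tumor 3 had the highest summed skeletal muscle markers (1629 RPKM) and the lowest summed epithelial markers (1128 RPKM) of all tumors. The part of these values in the 3 results was not tested.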

How the results depend on the processing

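The number of members called in plus-dox against no-dox tumors was 0 in edgeR, 2 with DESeq2, 1 with DESeq2 and moderated fold changes and 3 with limma-voom and tumor weights, and 0 under all other settings run. It was 0 in the other comparisons and in the joint test under every setting run. Of 230 estimates over members and alternatives, plus-dox against no-dox kept its sign in all (0.12 to 1.24). Off-dox against plus-dox kept it in 229 (-0.98 to 0.065). Some of the 230 could hardly differ from the main fit. The limit of an adjusted p under 0.05 leaves the estimates unchanged, and leaving out a tumor of the group not compared barely moves them. Off-dox against no-dox changed sign in 13. With the share of reads on genes as a covariate it was -0.030 for Col1a1, 0.066 for Col6a1 and -0.24 for Col12a1, and with plus-dox tumor 2 and off-dox tumor 4 removed -0.082 for Col1a1. With single tumors left out it ran from -0.085 to 0.17 for Col1a1, -0.048 to 0.12 for Col12a1, -0.40 to 0.086 for Col3a1 and -0.14 to 0.028 for Col6a1. The estimate of Col5a3 in off-dox against plus-dox ran from -0.85 to 0.065, the latter without plus-dox tumor 2. The causes of these changes were not tested.

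Replicate numbers are shared between groups, but same-numbered tumors did not deviate together (mean r -0.09 over 12 pairs, from -0.45 to 0.57, against 0.04 over 36 pairs with different numbers). With a replicate block 0 members were called in each comparison, the same number as without it, and the median difference of plus-dox from no-dox was 0.56. No chain ratio passed under any alternative (smallest adjusted p 0.23 to 0.55), which says little, since the smallest p these group sizes allow could pass only if shared by many of the 24 tests, and 29 to 39 of 45 correlations passed. With 4 tumors a group, differences of the size seen here have standard errors of 0.15 to 0.48, and depth of at least 1262 reads per member is not what limits them.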

Other observations

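Other cell types of the host varied widely between tumors. Skeletal muscle markers, 12 genes of contractile fibres, summed to 17.7 to 247 RPKM in no-dox, 191 to 577 RPKM in plus-dox and 17.996 to 1629 RPKM in off-dox tumors. All 12 had higher means in off-dox than in no-dox tumors (median log2 fold change 2.70) and 8 had an unadjusted p under 0.05, against 10.9% of genes, while none was called. Acta1, the skeletal actin, differed by 2.03 (SE 1.13, edgeR adjusted p = 0.33) and Mylpf, a fast myosin light chain, by 2.84 (SE 1.00, edgeR adjusted p = 0.15). Off-dox tumor 4, the highest of its group in 9 of 10 collagens, had the lowest muscle sum of that group (17.996 RPKM).

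Adipocyte markers summed to 35.3 to 1421 RPKM in no-dox, 43.7 to 889 RPKM in plus-dox and 61.4 to 413 RPKM in off-dox tumors. Of the 11 markers, 0 were higher in plus-dox than in no-dox tumors (51.4% of all genes, median -0.39). The same held for off-dox against no-dox tumors (50.7% of all genes, median -1.10). None had an unadjusted p under 0.05 in either. Fabp4 and Cfd, lipid-handling and secreted proteins of fat cells, differed by less than 1.5 times their SE between any groups. Macrophage markers had overlapping sums of 2109 to 3206, 2503 to 3006 and 2345 to 4139 RPKM in the 3 groups, and Csf1r and Itgam had an unadjusted p under 0.05, higher in off-dox than in no-dox tumors (10.9% of all genes). Lyz2 and C1qa, the most abundant of them, differed by -0.02 (SE 0.20) and -0.09 (SE 0.16) between plus-dox and no-dox tumors. Among pancreatic lineage markers, Krt19, a duct keratin, differed by -0.55 (SE 0.32) and Muc1 by -0.63 (SE 0.87) in plus-dox against no-dox tumors. Of the fibroblast markers, Fn1, which binds collagen, was 411 ± 76.9 RPKM in no-dox, 537 ± 102 RPKM in plus-dox and 583 ± 218 RPKM in off-dox tumors, and S100a4 differed by 0.03 (SE 0.38) in plus-dox against no-dox tumors. The smooth muscle genes Acta2 and Tagln, which contractile fibroblasts also express, differed by 0.12 (SE 0.20) and 0.11 (SE 0.24) in the same comparison. The endothelial genes Cdh5 and Egfl7 differed by 1.76 (SE 0.58, edgeR adjusted p = 0.33) and 0.55 (SE 0.24, edgeR adjusted p = 0.35).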
